A study of Mus musculus with 6 samples.

Results

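The Krüppel-like factor (KLF) genes Klf2, Klf3, Klf4, Klf5, Klf6, Klf7, Klf9, Klf10, Klf13 and Klf16 were followed in mouse acute myeloid leukaemia cells labelled control or knockout for Dnmt3b, an enzyme of de novo DNA methylation. They are 10 of 30142 genes measured, and were taken by gene symbol from array rows annotated to exactly 1 gene. Each of the 10 has 1 such row. Klf2 and Klf6 were chosen by their own difference between the groups, both having been found higher in Dnmt3b-KO in earlier results of these data, and the other 8 were listed beside them with those results known. The differences between the groups are therefore given below as a description and support nothing by themselves. Total RNA was measured on 6 Affymetrix arrays, 3 labelled control (from littermate controls) and 3 labelled Dnmt3b-KO. In both groups the leukaemia was driven by MLL-AF9, a fusion oncogene, and the AML cells were sorted by flow cytometry out of marrow of recipients that had reached end-stage disease. The sort markers, the cells in which Dnmt3b was deleted, the exons removed and the age and sex of the mice are not given in the sources used here. Nothing in the labels says that each array is a separate mouse or a separate leukaemia, so the spread behind every p-value may be technical.

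KLF proteins are transcription factors with a run of zinc fingers at the C-terminal end, through which they bind CACCC and GC-rich sequence in promoters. Members with an activating N-terminal part (Klf2, Klf4, Klf5, Klf6, Klf7) are set apart in textbooks from those that repress through the CtBP corepressor (Klf3, with Klf8 and Klf12) and those that bind the Sin3 corepressor (Klf9, Klf10, Klf13, Klf16, with Klf11). In blood, Klf2 holds lymphocytes and monocytes in a resting state, Klf4 promotes monocyte formation, Klf6 is active in macrophage inflammation, and several members are induced within minutes of a stimulus, like the genes of the AP-1 factors.

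On the log2 scale the array medians lay between 4.75 and 4.85. Dnmt3b-KO replicate 3 stood apart: its values correlated at 0.981 to 0.982 across genes with the other 5 arrays, which correlated at 0.998 to 0.999 with each other, and 6.97% of genes lay over 1 log2 unit from the mean of Dnmt3b-KO replicates 1 and 2. The main differences are therefore given over 6 arrays and without that array, and its own value is printed apart. Precision is limited by the number of arrays. Dnmt3b itself measured 6.76, 6.83 and 6.78 on the control arrays, against 6.47, 6.63 and 5.96 on the arrays labelled Dnmt3b-KO. All 3 of the latter were lower, by -0.44 ± 0.17 (SE) as a mean difference, with an adjusted p of 0.78 in limma. Without Dnmt3b-KO replicate 3 the difference was -0.24 ± 0.07 (adjusted p = 0.16). The Dnmt3b row was above background on all 6 arrays. Of 7 markers of leukaemic and myeloid progenitor cells, all were above the highest of 23 background rows on every array. Without Dnmt3b-KO replicate 3, Meis1 differed by 0.65 ± 0.06 (SE; limma, adjusted p = 0.011) and Cd34 by -1.01 ± 0.15 (adjusted p = 0.038). No other of the 7 passed an adjusted p under 0.05, beside 1.69% of all genes, and none did over 6 arrays. The 5 measured T cell markers, among them Cd3e, did not exceed it on any array, nor did Cdh5, Kdr, Tek, Vwf and Emcn among 6 endothelial markers. The sixth, Pecam1, which leukocytes also express, exceeded it on all 6, at 10.31, 10.52 and 10.21 in control and 10.07, 10.13 and 8.13 in Dnmt3b-KO.

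The promoter sequences of Klf2, Klf6 and Klf13 are shown because these 3 genes had the largest differences on Dnmt3b-KO replicates 1 and 2. RefSeq's promoter table (build GRCm38.p6, 250 bases before to 50 after the gene start) held 7 of the 10 members. Sequences read 5′ to 3′ on the gene's strand. Capitals mark CACCC or GGGTG, the core bound by KLF proteins, the GC box GGGCGG or CCGCCC, the MEF2-type sequence (CTA, then any 4 bases, then TAG), and the CCAAT box (CCAAT or ATTGG).
Klf2 (chr8:72318812-72319111, plus strand): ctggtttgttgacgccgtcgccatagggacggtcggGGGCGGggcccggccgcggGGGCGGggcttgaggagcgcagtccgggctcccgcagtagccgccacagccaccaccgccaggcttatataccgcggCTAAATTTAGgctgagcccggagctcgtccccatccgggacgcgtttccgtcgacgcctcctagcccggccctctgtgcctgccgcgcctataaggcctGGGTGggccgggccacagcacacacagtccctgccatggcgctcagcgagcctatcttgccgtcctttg
Klf6 (chr13:5861239-5861538, plus strand): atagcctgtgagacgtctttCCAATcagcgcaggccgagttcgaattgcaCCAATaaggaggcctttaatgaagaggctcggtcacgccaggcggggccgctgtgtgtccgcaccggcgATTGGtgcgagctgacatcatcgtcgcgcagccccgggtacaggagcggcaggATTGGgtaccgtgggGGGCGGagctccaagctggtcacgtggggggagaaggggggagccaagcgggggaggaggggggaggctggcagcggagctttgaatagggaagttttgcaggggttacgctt
Klf13 (chr7:63938866-63939165, minus strand): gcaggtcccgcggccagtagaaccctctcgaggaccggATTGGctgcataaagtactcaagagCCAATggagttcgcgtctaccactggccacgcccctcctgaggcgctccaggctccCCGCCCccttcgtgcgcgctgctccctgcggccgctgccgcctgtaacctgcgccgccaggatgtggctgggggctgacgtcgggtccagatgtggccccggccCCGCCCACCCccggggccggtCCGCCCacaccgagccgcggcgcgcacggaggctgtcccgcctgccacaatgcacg

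In the Klf2 promoter the letters CTAAATTTAG begin at position -118 from the start site and match the MEF2-type sequence, which 3.69% of 32851 promoters hold; every sequence was searched on both strands. None of the other 6 member promoters holds it. The Klf6 promoter has 4 CCAAT boxes and no CACCC, where 37.4% of all promoters hold CCAAT and 57.5% hold CACCC. The Klf13 promoter has 3 GC boxes, 2 CCAAT boxes and 1 CACCC, whose first base is the last base of a GC box. GC boxes were found in 6 of the 7 member promoters, against 35.7% of all promoters, and were missing from Klf9. All 7 are rich in CpG, the site that DNA methyltransferases act on, with 16 (Klf7) to 40 (Klf4) CpGs in 300 bases and a median of 29, where the median of all promoters is 7. DNA methylation was not measured in these samples. TGACGTCA and TATAAA were found in none of the 7, and TGANTCA only in Klf9, where 1.79%, 13.6% and 7.81% of all promoters hold them. Klf5, Klf10 and Klf16 have no entry in that table.

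Klf2 and Klf6, both activating members, were higher on every Dnmt3b-KO array than on any control. For Klf2 the log2 values were 8.49, 8.69 and 9.22 in control replicates 1, 2 and 3, and 10.25, 10.88 and 9.92 on the Dnmt3b-KO arrays in the same order. The groups did not overlap, with a gap of 0.70 between the highest control and Dnmt3b-KO replicate 3, the lowest of its group. For Klf6 the values were 10.24, 10.59 and 10.79 in control and 11.98, 12.49 and 13.28 in Dnmt3b-KO. Here the gap was 1.19 and Dnmt3b-KO replicate 3 was the highest array. Over 6 arrays Klf2 was higher in Dnmt3b-KO by 1.55 ± 0.30 (SE) and Klf6 by 2.04 ± 0.34, in log2 units as deposited. Without Dnmt3b-KO replicate 3 the differences were 1.77 ± 0.26 and 1.69 ± 0.20. Among all genes ordered by difference, Klf6 was number 29 and Klf2 number 88 over 6 arrays, and numbers 12 and 9 without that array.

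Klf4 and Klf7 showed the same direction with most of the difference on a lone array. Klf4, which promotes monocyte formation, measured 5.53, 5.72 and 5.85 in control, 5.93 and 5.94 on Dnmt3b-KO replicates 1 and 2, and 6.44 on replicate 3. The groups were parted by 0.08 only, and the difference was 0.41 ± 0.17 (SE) over 6 arrays and 0.24 ± 0.10 without replicate 3. Klf7, best known from neuron development, measured 7.30, 7.62 and 7.63 in control, 7.64 and 7.79 on Dnmt3b-KO replicates 1 and 2, and 9.59 on replicate 3. Its first 2 Dnmt3b-KO arrays thus lay at the upper edge of control (gap 0.01), and the 6-array difference of 0.82 ± 0.53 (SE) became 0.20 ± 0.12 without replicate 3. Klf5, a factor of epithelial growth, differed little between control (6.30, 5.92 and 6.19) and Dnmt3b-KO replicates 1 and 2 (5.99 and 6.07), and was lowest on replicate 3 (5.55). Its difference was -0.27 ± 0.17 over 6 arrays and -0.11 ± 0.12 without replicate 3.

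**Figure D1:**
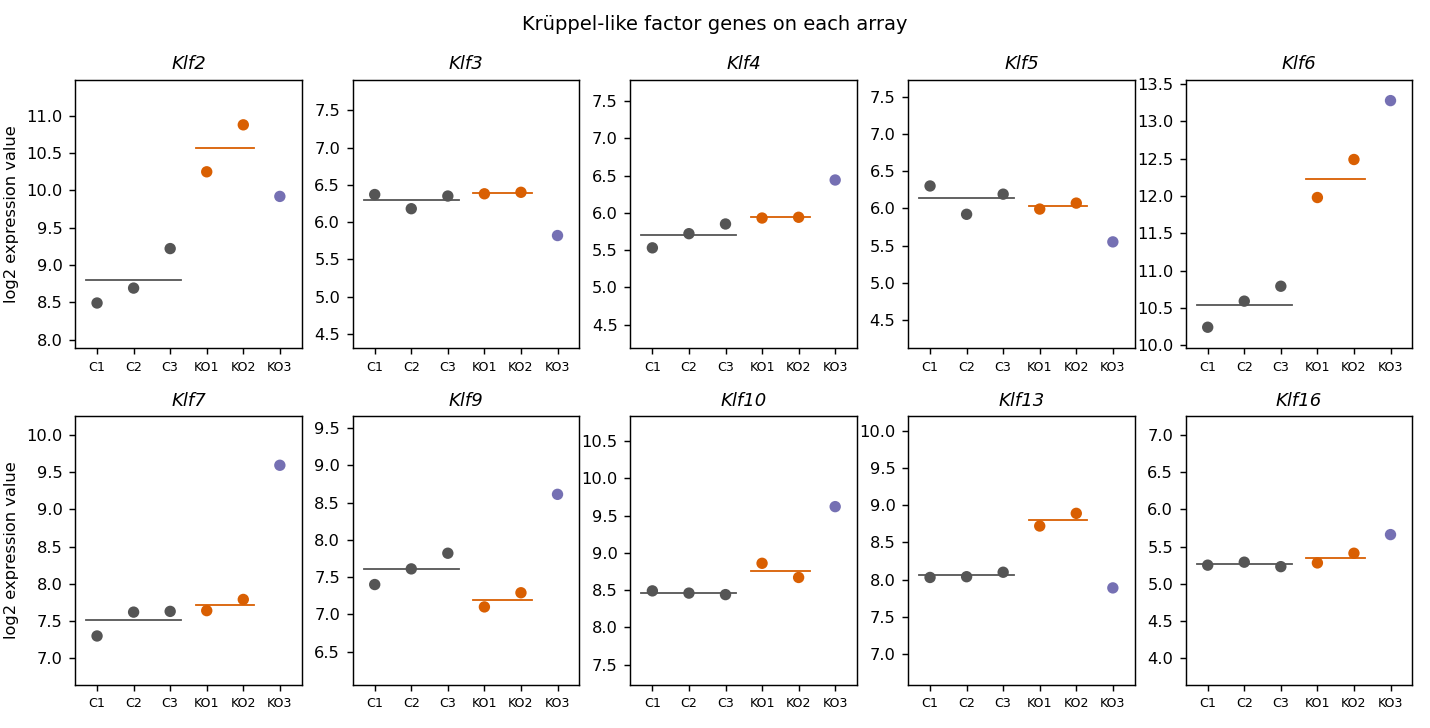
Log2 expression value of each of the 10 members on the 3 control arrays (C1 to C3, grey), Dnmt3b-KO replicates 1 and 2 (KO1 and KO2, orange) and Dnmt3b-KO replicate 3 (KO3, purple); horizontal lines are the means of the grey and of the orange points, and every panel spans the same number of log2 units. Klf2, Klf4, Klf6, Klf7 and Klf10 lie above every control on all 3 Dnmt3b-KO arrays, with the smallest gaps for Klf4 (0.08) and Klf7 (0.01). Klf3 and Klf13 do so on KO1 and KO2 only, and Klf7 lies clear of control on KO3 alone.

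Among the members that bind Sin3, Klf13, an activator of the chemokine gene Ccl5 in T cells, was higher on Dnmt3b-KO replicates 1 and 2 and not on replicate 3. It measured 8.03, 8.04 and 8.10 in control, 8.72 and 8.89 on Dnmt3b-KO replicates 1 and 2, and 7.89 on replicate 3, which lay below every control. The difference was 0.75 ± 0.07 (SE) without replicate 3 and 0.44 ± 0.26 over 6 arrays. Klf10, an early gene of TGF-beta signalling, measured 8.49, 8.46 and 8.44 in control and 8.86, 8.67 and 9.62 in Dnmt3b-KO. Its groups did not overlap (gap 0.18), and its controls were among the most alike of the members, with an SD of 0.03 (n = 3). The difference was 0.59 ± 0.25 over 6 arrays and 0.30 ± 0.07 without replicate 3.

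Klf9, a target of glucocorticoid and thyroid hormone receptors, went in opposite directions on the Dnmt3b-KO arrays. Control measured 7.40, 7.61 and 7.82, Dnmt3b-KO replicates 1 and 2 lay below at 7.10 and 7.29, and replicate 3 lay above at 8.61. The difference was -0.42 ± 0.13 (SE) without replicate 3 and 0.05 ± 0.41 with it. Klf16 measured 5.25, 5.29 and 5.23 in control and 5.28, 5.41 and 5.66 in Dnmt3b-KO, with overlapping groups, and it exceeded the highest background row on 4 of 6 arrays, so its values lie at the edge of detection. Its difference was 0.20 ± 0.11 (SE) over 6 arrays and 0.09 ± 0.06 without replicate 3. The other 9 members exceeded the highest background row on all 6 arrays. Klf3, the CtBP-binding member, measured 6.37, 6.18 and 6.35 in control, 6.38 and 6.40 on Dnmt3b-KO replicates 1 and 2, and 5.82 on replicate 3. Its difference was -0.11 ± 0.17 (SE) over 6 arrays and 0.08 ± 0.07 without replicate 3.

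Over 6 arrays the groups did not overlap for 5 members, all higher in Dnmt3b-KO (Klf2, Klf4, Klf6, Klf7 and Klf10), where 6.68% of all genes were higher without overlap and 8.21% lower. In limma's fit 0 of 10 members passed an adjusted p under 0.05, as did 0% of all genes; 2 members, Klf2 and Klf6, and 1920 genes had an unadjusted p under 0.05, and limma with array weights called 1 member, Klf6, beside 0.342% of all genes. Without Dnmt3b-KO replicate 3, 7 members were higher and 1 lower without overlap, beside 15.1% and 17.4% of all genes. Klf2, Klf6 and Klf13 then passed, all higher, beside 0.939% of genes higher and 1.69% in either direction. The choice of members used this contrast, so nothing is read from these shares. Leaving out any 1 further array ended the call of Klf2 and of Klf6, and that of Klf13 held only without control replicate 2. The difference was above 0 for 8 members in both comparisons, beside 48.8% of all genes over 6 arrays and 46.3% without replicate 3. The median difference of the members was 0.42 over 6 arrays and 0.22 without replicate 3, against -0.00 and -0.01 over all genes.

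**Figure D2:**
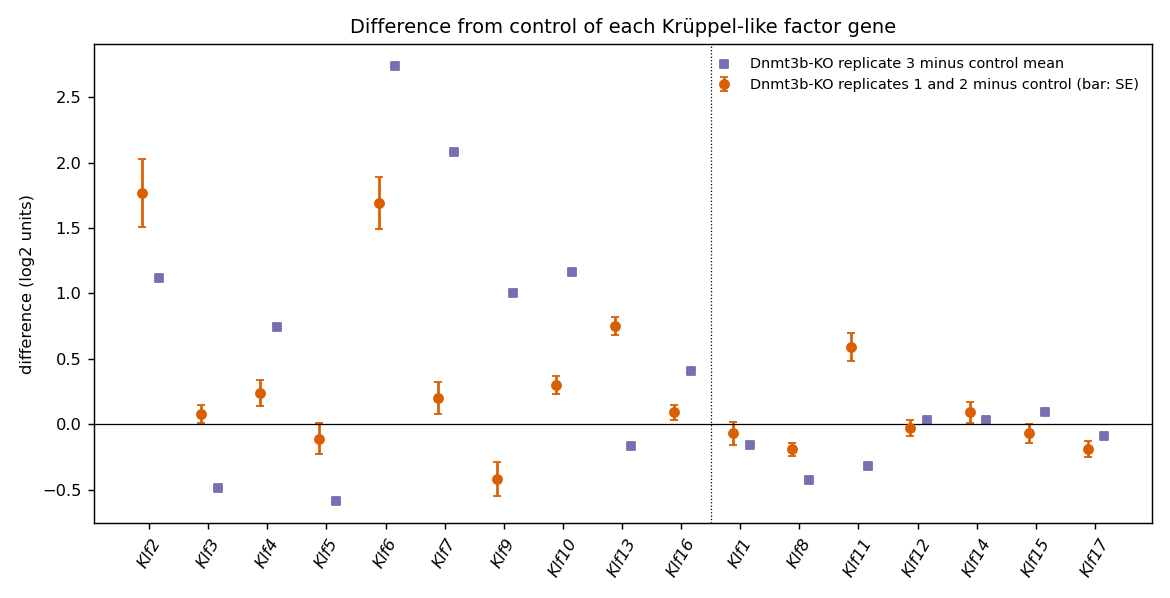
Difference from control in log2 units for the 10 members (left of the dotted line) and the 7 other KLF genes (right). Orange points with bars are Dnmt3b-KO replicates 1 and 2 minus control with the SE of limma's fit, and purple squares are Dnmt3b-KO replicate 3 minus the control mean, a lone array with no error. Klf2 and Klf6 lie above 1 by both measures, while Klf3, Klf9, Klf11, Klf12, Klf13 and Klf15 have the 2 measures on opposite sides of 0.

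Dnmt3b-KO replicate 3 lay outside the control values for all 10 members, 6 of them above the mean of Dnmt3b-KO replicates 1 and 2 and 4 below it. Of all genes, 75.4% were outside the control values there. It differed from replicates 1 and 2 by more than 1 for Klf6 (1.05), Klf7 (1.88) and Klf9 (1.42), that is 3 of 10 members beside 6.97% of all genes. Replicates 1 and 2 differed from each other by at most 0.63 in any member. On that array 9 of 10 monocyte and macrophage markers were more than 1 above replicates 1 and 2, and their mean level was 12.70, against 7.50 to 7.86 in control and 7.63 to 7.86 on replicates 1 and 2. Csf1r measured 12.97 there and at most 8.64 elsewhere, while C1qa was not above the background rows on any array. Of the 7 markers of leukaemic and myeloid progenitor cells, 3 (Kit, Cd34 and Meis1) were more than 1 below replicates 1 and 2 on replicate 3. Itgam, which is not a marker of progenitors alone, was more than 1 above. The part of either marker list in the values of Klf4, Klf6, Klf7, Klf9 and Klf10 on replicate 3 was not tested. In a bulk sample, more cells of a type and more RNA per cell cannot be told apart.

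Of the 7 other KLF genes none passed limma's threshold in either comparison. Klf11, a Sin3-binding member like Klf13, was the one with a clear level: it measured 7.52, 7.81 and 7.58 in control, 8.33 and 8.14 on Dnmt3b-KO replicates 1 and 2, and 7.32 on replicate 3. As for Klf13, the first 2 Dnmt3b-KO arrays lay above every control and the last below. The difference without replicate 3 was 0.59 ± 0.11 (SE; limma, adjusted p = 0.061, with 0.031 to 0.33 over the alternatives). Klf1, the erythroid member, and Klf8, Klf12, Klf14 and Klf17 were not above the background rows on any array, and Klf15, known from metabolism in muscle and liver, exceeded them on 4. Their differences without replicate 3 ran from -0.19 (Klf8 and Klf17) to 0.09 (Klf14), and over 6 arrays from -0.27 (Klf8) to 0.07 (Klf14).

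Genes nearest to Klf2 in pattern were sought by the smallest distance between values centred on each gene's mean over the 6 arrays. Dusp1, a phosphatase that switches off MAP kinases, was nearest, at a distance of 0.25, followed by the AP-1 genes Fosb (0.45), Jun (0.57) and Fos (0.64), and by Mir27a (0.74), a microRNA gene. Dusp1 measured 13.16, 13.38 and 14.18 in control and 15.03, 15.53 and 14.61 in Dnmt3b-KO. The lowest and highest array of each group were those of Klf2, which a choice by distance over these same values favours. Jun measured 8.69, 9.27 and 10.02 in control and 10.51, 11.46 and 10.71 in Dnmt3b-KO. The nearest KLF gene to Klf2 was Klf13, at a distance of 1.5 and 86th in order over all genes.

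For Klf6 the nearest was Anxa1, an annexin of granulocytes, at 0.47, followed by the receptor genes Fcgr4 (0.81), Lair1 (0.90) and Cd300lb (0.91) and the protease gene Mmp9 (1.04). Anxa1 measured 10.01, 9.95 and 10.39 in control and 11.82, 11.82 and 12.72 in Dnmt3b-KO. All 5 were highest on Dnmt3b-KO replicate 3, as Klf6 was, which the choice by distance again favours. Klf2 was the nearest KLF gene to Klf6, at 1.53 and 33rd in order. The 2 genes therefore share a direction but not a profile over the arrays: Dnmt3b-KO replicate 3 was the lowest of its group for Klf2 and the highest for Klf6.

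**Figure D3:**
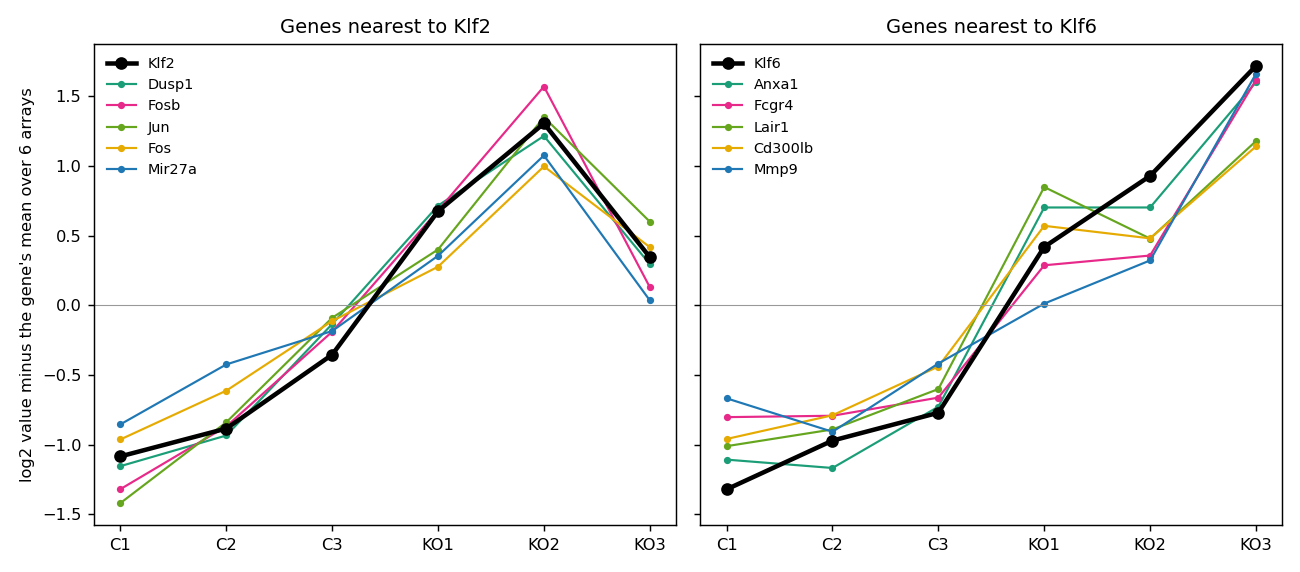
Log2 value minus the gene's own mean over the 6 arrays (C1 to C3 control, KO1 to KO3 Dnmt3b-KO) for Klf2 and Klf6 (black) and the 5 genes nearest to each (colours); lines join the arrays of a gene for legibility and carry no order. Klf2 and the genes chosen for nearness to it peak on KO2, and Klf6 and the genes chosen for nearness to it on KO3.

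Immediate early genes are switched on within minutes and also respond to the handling of cells. Of the 11 measured, 6 shared with 6 members an order of arrays inside the groups that leaves out Dnmt3b-KO replicate 3. Klf2, Klf4, Klf6, Klf7, Klf9 and Klf13 had control replicate 1 lowest, control replicate 3 highest and Dnmt3b-KO replicate 2 above replicate 1. So did Fos, Fosb, Jun, Ier2, Dusp1 and Zfp36, and 8.83% of all genes, while Egr1, Egr2, Atf3, Ier3 and Nr4a1 did not. This order is that of Klf2 itself in these data, so the match of Klf2 was fixed in advance. Dusp1, Fosb, Jun and Fos are the genes nearest to Klf2 over these same arrays, so their match was favoured from the start as well. The shared order is a description only. It held narrowly for Klf4, at 5.93 and 5.94 on Dnmt3b-KO replicates 1 and 2. For Klf7 it was as narrow, at 7.62 and 7.63 on control replicates 2 and 3. Dnmt3b-KO replicate 3 was the highest of its group for Klf4, Klf6, Klf7 and Klf9 and the lowest for Klf13. Dnmt3b-KO replicate 3, the lowest of its group for Klf2, was also the lowest for Dusp1, Fosb, Ier2 and Zfp36, but not for Fos or Jun. The mean level of the 11 genes was 8.68 to 9.18 in control, 9.33 to 9.83 on Dnmt3b-KO replicates 1 and 2 and 9.71 on replicate 3, so the groups did not overlap. None of the 11 passed limma's threshold. Without replicate 3, Dusp1 was higher by 1.70 ± 0.31 (SE; adjusted p = 0.063, with 0.027 to 0.35 over the alternatives) and Fosb by 1.92 ± 0.38 (adjusted p = 0.077, with 0.035 to 0.37). Over 6 arrays the differences were 1.48 ± 0.34 for Dusp1 and 1.59 ± 0.45 for Fosb. The median of the list was 0.82 over 6 arrays and 0.17 without replicate 3. In the latter comparison Egr1 (-0.31), Egr2 (-0.09) and Ier3 (-0.03) had differences below 0. The part of cell handling in the values of Klf2 and Klf6 was not tested.

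Genes that act with or beside the KLF family were read from the same fit. Of 68 related genes, 0 passed over 6 arrays in limma, with 12 at an unadjusted p under 0.05, beside 1920 of 30142 genes. With array weights 1, Tsc22d3, was called, beside 0.342% of all genes. Without Dnmt3b-KO replicate 3, 2 rose and 2 fell, beside 1.69% of all genes in either direction. Among 15 measured genes described as KLF targets, Eng, the TGF-beta coreceptor endoglin, rose from 6.82, 6.73 and 6.86 to 7.72 and 7.68. That is a difference of 0.89 ± 0.06 (SE; limma, adjusted p = 0.0050, with 0.0024 to 0.18 over the alternatives), and Eng measured 6.56 on replicate 3, below every control. Over 6 arrays the difference was 0.51 ± 0.32. The other 14 did not pass. Cdkn1a, the cell cycle inhibitor p21, measured 8.87, 8.51 and 9.14 in control, 8.53 and 8.38 on Dnmt3b-KO replicates 1 and 2 and 11.66 on replicate 3. S1pr1 and Nos3, best known of the Klf2 targets in lymphocytes and endothelium, were not above the background rows on any array, nor were Edn1, F3 and Pdgfa. Thbd and Tgfb1, also on the list, lay below every control on all 3 Dnmt3b-KO arrays, beside 8.21% of all genes. Thbd measured 7.02, 6.96 and 7.16 in control and 6.82, 6.72 and 6.11 in Dnmt3b-KO. Its difference was -0.50 ± 0.20 (SE) over 6 arrays and -0.28 ± 0.08 without replicate 3. Of the 15 genes, 10 had a difference above 0 over 6 arrays and 8 without replicate 3. The median difference of the list was 0.08 over 6 arrays and 0.00 without replicate 3.

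Of 6 glucocorticoid-responsive genes, the group to which Klf9 belongs by its own regulation, Tsc22d3 rose and 5 did not pass. Tsc22d3, which encodes the leucine zipper protein GILZ, measured 7.44, 7.55 and 7.76 in control and 8.45 and 8.58 on Dnmt3b-KO replicates 1 and 2. The difference was 0.93 ± 0.10 (SE; limma, adjusted p = 0.021, with 0.0096 to 0.25 over the alternatives), and replicate 3, at 7.76, lay 0.01 above the highest control. Over 6 arrays the difference was 0.68 ± 0.23. Klf9 was lower on the same 2 arrays. Fkbp5, another glucocorticoid target, differed by 0.06 ± 0.05 without replicate 3. Dusp1, counted in this list and among the immediate early genes, had the largest difference, 1.70 ± 0.31 without replicate 3. Sgk1 differed by 0.32 ± 0.07 without replicate 3 and 0.67 ± 0.30 over 6 arrays. The difference was above 0 for 6 of 6 genes without replicate 3 and for 5 over 6 arrays, beside 46.3% and 48.8% of all genes. The median of the 6 genes was 0.37 over 6 arrays and 0.26 without replicate 3.

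Of 11 genes for upstream factors and for protein turnover of KLFs, Mef2c fell and 10 did not pass. Mef2c, a factor that binds sequences of the type found in the Klf2 promoter above, measured 9.49, 9.79 and 10.15 in control and 8.27 and 8.15 on Dnmt3b-KO replicates 1 and 2. The difference was -1.60 ± 0.18 (SE; limma, adjusted p = 0.021, with 0.0091 to 0.26 over the alternatives), and replicate 3 lay above control at 10.73. Over 6 arrays the difference was -0.76 ± 0.72. Its relative Mef2a measured 9.02, 8.94 and 9.07 in control, 9.27 and 9.11 on replicates 1 and 2, and 12.50 on replicate 3. Mapk7, the kinase that acts on MEF2 factors ahead of Klf2, and its activator Map2k5 differed by -0.06 ± 0.06 and 0.09 ± 0.06 without replicate 3, and by 0.10 ± 0.14 and -0.08 ± 0.15 over 6 arrays. The median of the list was 0.24 over 6 arrays and 0.05 without replicate 3.

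Of 11 cofactor genes, Sap30 fell and 10 did not pass. Sap30, a subunit of the Sin3 corepressor, measured 8.32, 8.48 and 8.39 in control, 7.99 and 7.81 on Dnmt3b-KO replicates 1 and 2 and 10.73 on replicate 3. The difference of -0.50 ± 0.08 (SE) lay at the threshold (limma, adjusted p = 0.049, with 0.026 to 0.29 over the alternatives), and over 6 arrays the difference was 0.45 ± 0.78, of opposite sign. Sin3a, Sin3b and the acetyltransferase gene Ep300 lay below every control on all 3 Dnmt3b-KO arrays without passing the threshold. Of all genes, 8.21% were lower without overlap over 6 arrays. Sin3a, which encodes the scaffold of that corepressor, measured 12.48, 12.41 and 12.43 in control and 12.22, 12.29 and 11.41 in Dnmt3b-KO, a difference of -0.46 ± 0.24 (SE) over 6 arrays and -0.18 ± 0.06 without replicate 3. Sin3b, its close relative, measured 8.36, 8.21 and 8.13 in control and 7.95, 8.04 and 7.69 in Dnmt3b-KO, with differences of -0.34 ± 0.11 and -0.24 ± 0.08. For Ep300 the differences were -0.31 ± 0.12 and -0.20 ± 0.08. Ctbp1, Ctbp2, Hdac1, Hdac2 and Hdac3 had differences between -0.07 and 0.06 without replicate 3 and between -0.12 and 0.01 over 6 arrays. The median of the cofactor list was -0.07 over 6 arrays and -0.00 without replicate 3. Sp genes, the nearest relatives of the KLF family, had 0 of 8 measured members past the threshold, and 4 of them, among them Sp7 with the smallest p, were not above the background rows. Sp1 and Sp3, present in most cells, differed by 0.08 ± 0.05 and 0.07 ± 0.06 without replicate 3, and by -0.09 ± 0.15 and -0.06 ± 0.12 over 6 arrays. Leaving out 1 further array from the comparison without replicate 3 ended the call of Sap30 each time. Eng lost its call without Dnmt3b-KO replicate 1 or 2, Mef2c without either of these or control replicate 2, and Tsc22d3 without any array but control replicate 3.

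**Figure D4:**
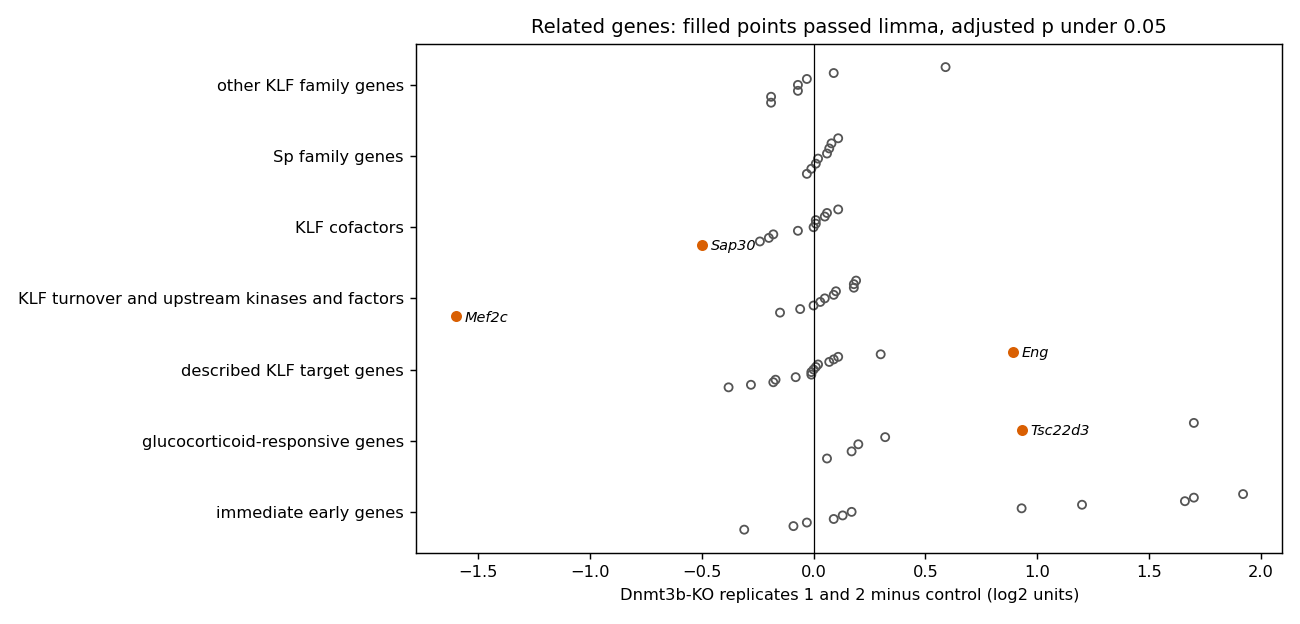
Difference between Dnmt3b-KO replicates 1 and 2 and control in log2 units for each measured gene of the 7 related lists, 1 row of points per list; filled orange points passed limma at an adjusted p under 0.05 and open points did not. Most points lie near 0, with Eng, Tsc22d3, Mef2c and Sap30 filled and 5 immediate early genes above 0.9.

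**Figure D5:**
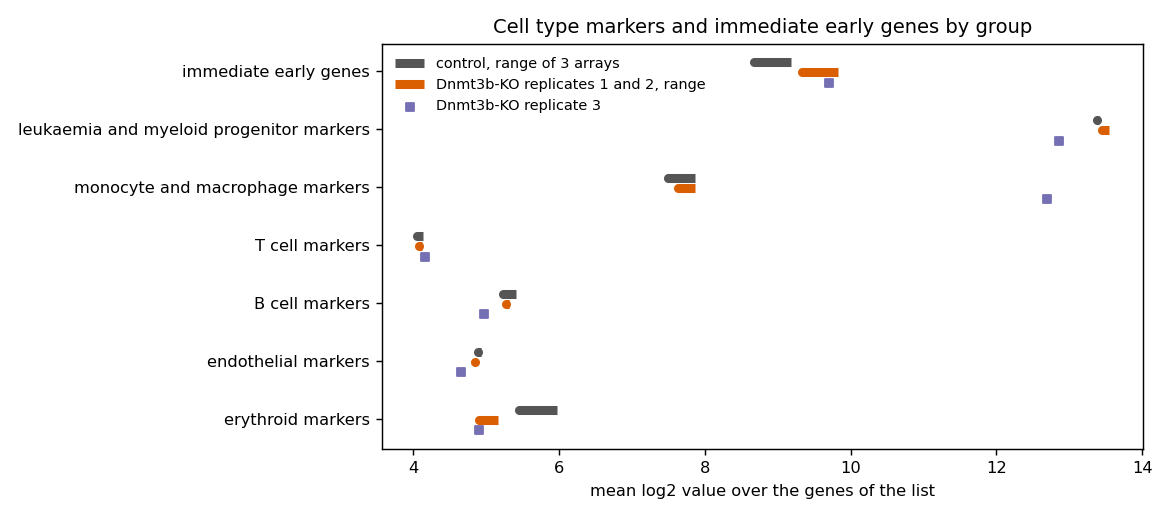
Mean log2 value over the measured genes of each marker list and of the immediate early genes; bars span the 3 control arrays (grey) and Dnmt3b-KO replicates 1 and 2 (orange), and the purple square is Dnmt3b-KO replicate 3. Monocyte and macrophage markers part replicate 3 from the other arrays. The mean of the immediate early genes parts the groups, though not every gene of that list does.

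The 3 measured erythroid markers (Alas2, Slc4a1 and Epor) had a mean level of 5.45 to 5.98 in control. It was 4.90 to 5.16 on Dnmt3b-KO replicates 1 and 2 and 4.91 on replicate 3, without overlap. Each of these genes was lower without overlap, as were 8.21% of all genes over 6 arrays, and none passed limma's threshold. Alas2 was above the background rows on all 6 arrays, Slc4a1 on the 3 control arrays only, and Epor on no array. Klf1, the KLF gene of red cell precursors, was at background throughout. Of 4 measured B cell markers, Cd79a, Ms4a1 and Pax5 were not above the background rows on any array. Cd79b was above them on all 6, at 9.20, 9.09 and 9.08 in control and 9.32, 9.28 and 7.79 in Dnmt3b-KO.

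The measured genes next to each member in the gene order of GRCm38.p6 were read to see whether they differed as well. Of 40 neighbours, 2 on each side of each member, 3 passed limma's threshold without Dnmt3b-KO replicate 3, beside 1.69% of all genes, and the median difference was 0.00. Akr1e1, an aldo-keto reductase gene beside Klf6 on chromosome 13, fell by 1.18 ± 0.08 (SE; adjusted p = 0.0047), opposite to Klf6. Tlr1 and Tlr6, toll-like receptor genes beside Klf3 on chromosome 5, rose by 0.59 ± 0.08 (adjusted p = 0.033) and 0.95 ± 0.10 (adjusted p = 0.020), while Klf3 differed by 0.08 ± 0.07. Over 6 arrays none of the 40 passed, and the differences were -0.50 ± 0.57 for Akr1e1, 0.61 ± 0.08 for Tlr1 and 0.73 ± 0.21 for Tlr6. Over the alternatives to the comparison without replicate 3, the adjusted p ran from 0.0017 to 0.18 for Akr1e1, 0.016 to 0.27 for Tlr1 and 0.0094 to 0.25 for Tlr6. Without a further array, Akr1e1 lost its call when Dnmt3b-KO replicate 1 or 2 was left out, Tlr6 in every case but control replicate 2, and Tlr1 in every case. The neighbours of Klf2 on chromosome 8 (Fam32a, Ap1m1, Eps15l1 and Calr3) had differences from -0.10 to 0.13 without replicate 3 and from -0.19 to 0.04 over 6 arrays. Those of Klf13 on chromosome 7 had differences from -0.09 to 0.02 and from -0.07 to 0.10.

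The control arrays varied in the members as follows. The SD over the 3 controls had a median of 0.17 for the members, with 0.38 for Klf2 and 0.28 for Klf6 at the top and 0.03 for Klf10, Klf13 and Klf16 at the bottom, against a median of 0.08 over all genes. Klf2 thus had both a large difference between the groups and the widest control spread of the 10 genes.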

How the data were processed

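Each array's deposited log2 values had been normalized by the authors with RMA, according to the submitters' processing notes. Values reach 19.59, although scanner signals end at 16 on that scale; what the authors did to stretch it is unknown, so differences stay in deposited log2 units and no folds are given. Of 72688 rows, 30604 carried exactly 1 symbol in the platform annotation (827 symbols were updated by gene identifier), and the highest-mean row per gene left 30142 genes. Some listed genes are not reported here.

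Groups were compared with limma 3.58.1 under R 4.3.3 (eBayes, Benjamini-Hochberg over all genes, threshold 0.05), over 6 arrays and without Dnmt3b-KO replicate 3. The fit was run on simulated data, where changes of 1 log2 unit were recovered at 91.0% with 6 arrays and 88.1% with 5. Both simulations took their spread from the arrays other than Dnmt3b-KO replicate 3. They therefore do not show what the 6-array fit can recover with that array. The members, the related lists and the comparison without that array were chosen with earlier results of these data known. Named genes are the 10 members, the 7 other KLF genes, the 5 genes nearest to Klf2 and to Klf6, and, of each list, up to 3 per direction that passed in either fit or else the one with the smallest p; other genes were named after their values were seen. Above background means above the highest of 23 background rows on that array, whose maxima ran from 4.96 to 5.62. Promoters are RefSeq's, build GRCm38.p6.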

Additional observations from a re-analysis of the deposited data

How the results depend on the processing

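Over 6 arrays, array weights called 103 genes, 1 member and 1 related gene, and leaving out each array in turn gave 0 to 509 genes, 0 to 3 members and 0 to 4 related genes, the highest without Dnmt3b-KO replicate 3; the other alternatives called 0 of each. The weight of Dnmt3b-KO replicate 3 was 0.11 against 1.26 to 2.17 for the rest. Klf3, at -0.11 over 6 arrays, turned to 0.06 with array weights, and ran from -0.21 to 0.08 when arrays were left out, the latter without Dnmt3b-KO replicate 3. Klf9, at 0.05, turned to -0.34 with array weights, and ran from -0.42 (without Dnmt3b-KO replicate 3) to 0.34 when arrays were left out, with -0.05 without control replicate 1.

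In the comparison of 5 arrays, 509 genes had been called. That count was 842 with only genes above the 40th percentile tested, 1148 with the threshold raised to 0.1, 394 with repeated values counted once (chosen after the data were seen), 96 with the replicate number as a block and 0 without empirical Bayes. The 3 members became 2 with the block, which ended the call of Klf13, and 0 without empirical Bayes. The 4 related genes became 8 with the percentile filter, 8 with the raised threshold, 6 with the block and 0 without empirical Bayes. Among the 6 were Dusp1, Fos, Fosb and Jun, while Mef2c and Sap30 were lost. In the block fit control replicate 3 had no same-numbered array and so did not enter the differences. Klf2 differed by 1.98 there, as it did with control replicate 3 left out. That array was the highest control for Dusp1, Fos, Fosb and Jun, so their calls with the block were made without its values. Leaving out 1 further array gave 13 to 262 genes, 0 to 1 members and 0 to 4 related genes; where this left a lone Dnmt3b-KO array, it is assumed to vary like the controls. Apart from Klf3 and Klf9 over 6 arrays, no member changed direction under any alternative run. Same-numbered arrays had deviations that correlated at 0.13, 0.03 and 0.11, so the numbers were not taken as pairs. The cause was not tested. Klf16 and the genes not above background are measured near the limit of the arrays, and sizes of differences hold only on the deposited scale.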
